A study of Homo sapiens with 6 samples.

Results

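The genes described here are 10 RNA methyltransferases and partner proteins that modify RNA other than through the m6A mRNA writer complex. They were taken by symbol, by a rule that uses no measured value, although earlier results of these data were known when the group was proposed. All 10 were found among the 56305 genes in the deposited counts. METTL5, TRMT112 and ZCCHC4 serve ribosomal RNA, METTL1, WDR4, TRMT6, TRMT61A and NSUN2 serve transfer RNA, PCIF1 acts at the mRNA cap and METTL4 acts on small nuclear RNA. RNA sequencing was carried out on MOLM13, a human acute myeloid leukemia cell line with an FLT3 internal tandem duplication. Cells of this 1 line were given either DMSO, the vehicle, or 1 μM ZW27941, and were collected after 24 h. Each condition had 3 libraries. ZW27941 is a proteolysis-targeting chimera that recruits the VHL ubiquitin ligase to METTL3, the catalytic subunit of the m6A mRNA writer. The comparison asks how the transcripts of these other methyltransferases stood when cells had received the METTL3 degrader.

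The enzymes of this group share a methyl donor, S-adenosylmethionine, with METTL3 and differ in the RNA they choose. Several act as pairs: TRMT112 is a small protein that stabilises METTL5 and other methyltransferases, WDR4 holds the tRNA for METTL1, and TRMT6 binds the tRNA for the catalytic subunit TRMT61A. Methyl groups on tRNA protect it from decay and tune decoding, those on rRNA sit in and near the functional centres of the ribosome, and the methyl group that PCIF1 adds lies on the first transcribed nucleotide beside the cap. In several cancers, leukemia among them, some of these enzymes have been studied for their part in translation.

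The libraries held between 143454176 and 178744976 counts on genes, and each member had between 1735 and 42719 counts in a library. All 10 members were among the 20399 genes that passed the expression filter. Levels are given as CPM, counts scaled to a common library total with edgeR's TMM factors. The adjusted p-values come from the quasi-likelihood test of edgeR, corrected after Benjamini and Hochberg over all genes tested, with a threshold of 0.05. The labels do not say that replicates were separate cultures, so these p-values measure the spread between libraries, which may be technical. ZW27941 replicate 3 stood apart from the others in its group. Chi-square per degree of freedom was 7.88 and 11.5 against its 2 companions, where the other pairs of replicates had 4.35 to 5.16. Of its reads, 5.25% aligned to several places, against 3.63% to 4.07% in the other 5 libraries. All 10 markers of myeloid cells and of MOLM13 were tested. Of these, 6 were higher on ZW27941, where 16.3% of all genes tested were, and the summed level of the 10 was 2742 to 2798 CPM in DMSO and 2997 to 3074 CPM on ZW27941. Most of the rise in the sum was LYZ, a lysozyme gene, at means of 963 and 1160 CPM. The largest log2 fold change of the 10 was that of CSF1R, at 0.40 (means of 48.2 and 63.8 CPM, edgeR adjusted p = 4.69e-10). CD33, FLT3, HOXA9 and MEIS1 did not pass. All 10 markers had a mean of at least 10 CPM, a level at which 45.9% of genes passed in either direction. Markers of other lineages were near 0. The 5 erythroid and megakaryocyte markers summed to 1.42 to 1.82 CPM in DMSO and 1.75 to 1.93 CPM on ZW27941, with HBB, HBA1 and PF4 at 0 counts in every library. The 5 lymphoid markers summed to 2.01 to 2.58 CPM and 1.86 to 1.99 CPM, and the 5 epithelial and stromal markers to 1.01 to 1.07 CPM and 0.769 to 1.22 CPM. The part of the higher myeloid markers in the results was not tested. In bulk RNA, fewer cells with a transcript and less of it per cell cannot be told apart. The METTL3 transcript had a log2 fold change of 0.013 (edgeR adjusted p = 0.765), which does not check the labels because the degrader acts on the protein.

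On ZW27941, 6 of the 10 members passed the test. METTL4 and NSUN2 rose, and WDR4, METTL5, TRMT61A and PCIF1 fell. Among all genes tested, 30.1% passed, 16.3% higher and 13.8% lower. Among genes with a mean of at least 10 CPM, as all members have, 45.9% passed. The 60.0% of members called is read against these shares, and with 10 genes it is not a result about the members. With upper quartile normalization, the share of all called genes that were lower was 57.9% in place of 45.8%, while the same 6 members passed with the same direction. The changes were small. Sizes ran from 0.021 to 0.32 on the log2 scale, with a median size of 0.094, against 0.12 over all genes tested. The 0.12 takes in genes of every level that passed the filter. A median size for the 9558 genes with a mean of at least 10 CPM was not computed. The median signed change was −0.024 for the members and −0.0019 for all genes tested. In each of the 6 members called, the 3 ZW27941 libraries lay on one side of the 3 DMSO libraries, which held for 41.6% of all genes tested and for 55.9% of those with a mean of at least 10 CPM. Without ZW27941 replicate 3, 7 members passed, namely these 6 and TRMT6.

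**Figure D1:**
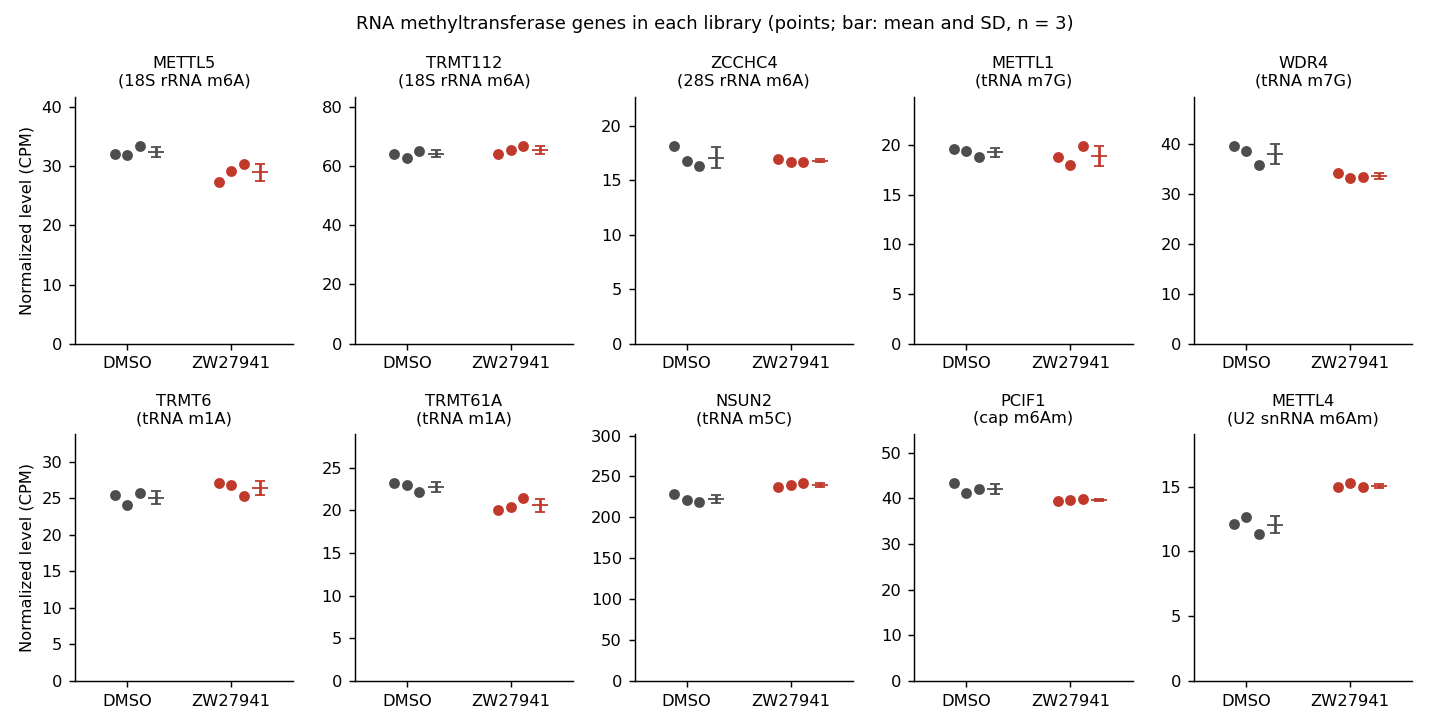
Level of each of the 10 members in each library, in CPM on an axis that is separate for each gene, with points for the 3 DMSO and the 3 ZW27941 libraries and bars for the group mean and SD (n = 3). The groups do not overlap in METTL5, WDR4, TRMT61A and PCIF1, which are lower on ZW27941, nor in NSUN2 and METTL4, which are higher. Of all genes with a mean of at least 10 CPM, 55.9% had no overlap.

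**Figure D2:**
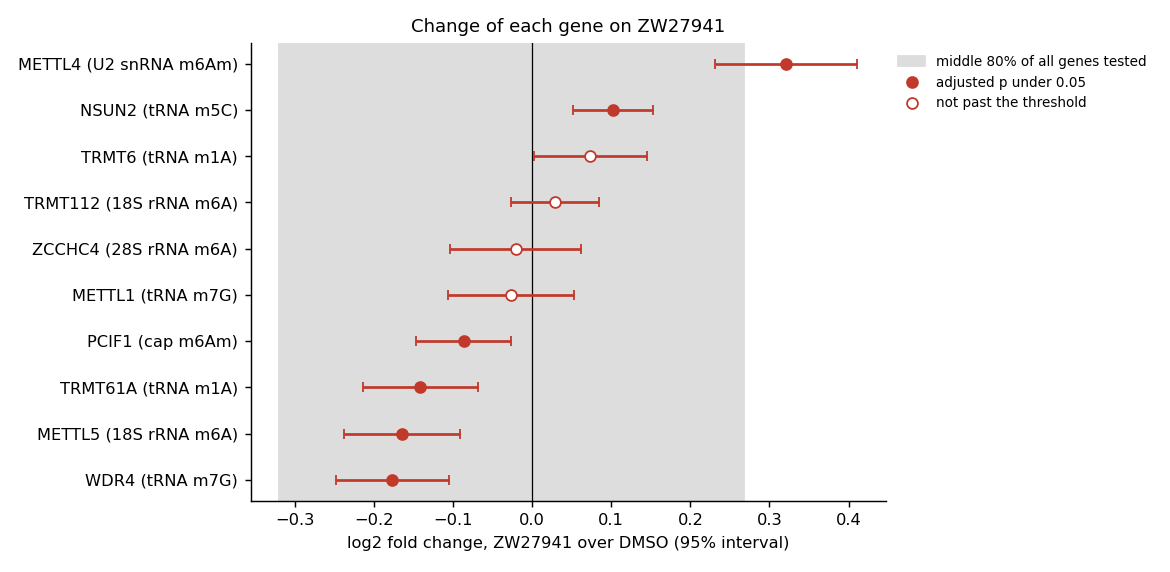
Log2 fold change of each member, ZW27941 against DMSO, as points with 95% intervals from edgeR's quasi-likelihood fit, and the middle 80% of all 20399 genes tested as a grey band from −0.32 to 0.27. METTL4, at 0.32, lies above the band and the other 9 members lie within it. The band takes in genes of every level that passed the filter.

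The start regions of 5 of the 6 genes that passed are printed here, those of METTL4, which rose, and of the 4 that fell. NSUN2 rose as well but has no window here. RefSeq promoters of GRCh38.p14, from 250 bases before to 50 bases after the start, were found for 8 of the 10 members. NSUN2 and METTL1 were not matched. Capitals mark matches, on either strand, to a motif searched: the E-box CACGTG, the ETS motif CCGGAAG, the cyclic AMP response element TGACGTCA, the CCAAT box CCAAT, the NRF1 core GCATGCGC and the YY1 motif AAGATGGC. Each sequence is written 5′ to 3′ on the strand of its gene. The METTL4 window lies at chr18:2571456-2571755 (−), the WDR4 window at chr21:42879490-42879789 (−), the METTL5 window at chr2:169824856-169825155 (−), the TRMT61A window at chr14:103528946-103529245 (+) and the PCIF1 window at chr20:45934433-45934732 (+).
METTL4, risen: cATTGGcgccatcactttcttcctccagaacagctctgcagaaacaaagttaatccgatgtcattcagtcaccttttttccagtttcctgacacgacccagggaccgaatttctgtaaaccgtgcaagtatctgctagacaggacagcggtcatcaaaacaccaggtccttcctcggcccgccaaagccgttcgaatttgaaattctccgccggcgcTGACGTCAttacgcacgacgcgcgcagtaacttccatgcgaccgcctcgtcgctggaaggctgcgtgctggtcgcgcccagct
WDR4, fallen: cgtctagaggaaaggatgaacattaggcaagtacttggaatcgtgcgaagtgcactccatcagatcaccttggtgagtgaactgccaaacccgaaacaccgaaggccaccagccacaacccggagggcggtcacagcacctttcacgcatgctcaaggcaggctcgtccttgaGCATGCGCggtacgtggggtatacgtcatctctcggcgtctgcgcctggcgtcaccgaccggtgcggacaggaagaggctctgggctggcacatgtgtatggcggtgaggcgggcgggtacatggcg
METTL5, fallen: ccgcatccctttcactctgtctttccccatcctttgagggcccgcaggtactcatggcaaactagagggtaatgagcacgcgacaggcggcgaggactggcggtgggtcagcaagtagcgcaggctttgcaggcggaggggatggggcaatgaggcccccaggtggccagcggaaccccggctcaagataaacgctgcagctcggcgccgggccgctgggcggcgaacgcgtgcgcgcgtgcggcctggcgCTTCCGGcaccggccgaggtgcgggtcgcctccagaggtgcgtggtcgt
TRMT61A, fallen: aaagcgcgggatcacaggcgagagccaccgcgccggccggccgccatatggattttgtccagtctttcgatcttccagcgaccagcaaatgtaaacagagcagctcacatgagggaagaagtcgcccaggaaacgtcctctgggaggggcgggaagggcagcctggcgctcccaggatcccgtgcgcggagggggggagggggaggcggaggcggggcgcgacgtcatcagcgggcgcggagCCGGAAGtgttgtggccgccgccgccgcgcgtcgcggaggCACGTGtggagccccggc
PCIF1, fallen: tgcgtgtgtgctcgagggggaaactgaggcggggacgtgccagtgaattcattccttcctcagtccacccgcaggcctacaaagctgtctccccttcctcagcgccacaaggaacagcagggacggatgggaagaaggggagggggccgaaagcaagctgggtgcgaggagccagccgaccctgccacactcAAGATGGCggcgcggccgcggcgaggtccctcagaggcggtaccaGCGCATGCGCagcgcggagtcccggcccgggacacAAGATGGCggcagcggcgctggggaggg
The 4 genes that fell do not share 1 of these motifs. The ETS motif stands in METTL5 and TRMT61A, in METTL5 as its reverse complement CTTCCGG that begins 1 base after the start, and it is found in 10.3% of the 35116 promoters of the table. The NRF1 core stands in WDR4 and, as 2 overlapping matches, in PCIF1, and is found in 3.05% of promoters. PCIF1 also has the YY1 motif at 2 places (2.89% of promoters) and TRMT61A the E-box (7.26%). In the METTL4 window, the cyclic AMP response element begins at base 218 of the 300 (1.85% of promoters) and a CCAAT box, read as ATTGG, at base 2 (34.6%). Some of these motifs also stand in members that did not pass. The ETS motif and the CCAAT box stand in TRMT6 and TRMT112, the E-box in TRMT6 and the YY1 motif in ZCCHC4. Among the 8 members with a promoter, the NRF1 core was found only in WDR4 and PCIF1. It also stands in METTL3, which did not pass and has the ETS motif and the CCAAT box as well. Whether any motif had a part in the changes was not tested. These matches describe the letters of the windows and are not sites of binding.

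METTL5, with its partner TRMT112, methylates an adenosine of the small subunit's 18S rRNA, and ZCCHC4 methylates an adenosine of 28S rRNA. METTL5 fell and its partner did not pass the test. METTL5 was at 32.1, 31.9 and 33.5 CPM in the DMSO libraries and at 27.4, 29.2 and 30.4 CPM in the ZW27941 libraries. Every ZW27941 library lay below every DMSO library. The mean went from 32.5 ± 0.841 CPM to 29.003 ± 1.47 CPM (SD, n = 3 each), a log2 fold change of −0.16 (standard error 0.035, edgeR adjusted p = 0.00115), with a percent change of −10.8%. METTL5 lies at chr2:169810081-169824931 (GENCODE v29, GRCh38, minus strand). Its exons share 572 bases, 19.97% of their length, with SSB on the opposite strand, and SSB fell as well (log2 fold change −0.16, edgeR adjusted p = 2.44e-05). Whether counting used strand is not given in the sources used here. Reads in the shared bases may have been left out of both genes, as HTSeq keeps a tally of ambiguous reads, or given to the wrong one. The part of SSB in the METTL5 value was not tested.

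TRMT112, the activator of METTL5 and of several other methyltransferases, was at 64.2, 63.0 and 65.3 CPM in DMSO and 64.2, 65.4 and 66.9 CPM on ZW27941, and the groups overlapped. Its log2 fold change was 0.029 (standard error 0.027, 95% interval −0.027 to 0.085, edgeR adjusted p = 0.461). The gene (chr11:64316460-64318084, minus strand) shares 284 exon bases, 17.5% of its exon length, with ESRRA on the opposite strand, which had a log2 fold change of 0.054 (edgeR adjusted p = 0.199). Of its 7 pseudogenes named in the files, only TRMT112P6 had more than 2 counts in a library, with 41 to 70, or 0.553% of the counts of TRMT112. ZCCHC4 (chr4:25312785-25370383, plus strand) was at 18.2, 16.8 and 16.3 CPM in DMSO and 17.0, 16.7 and 16.7 CPM on ZW27941. The ZW27941 libraries fell inside the range of the DMSO libraries, and the log2 fold change was −0.021 (standard error 0.040, 95% interval −0.10 to 0.062, edgeR adjusted p = 0.739).

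Among the tRNA enzymes, METTL1 and WDR4 together place 7-methylguanosine in the variable loop. The non-catalytic subunit WDR4 fell, while METTL1 did not pass. WDR4 was at 39.6, 38.6 and 35.7 CPM in DMSO and 34.2, 33.2 and 33.4 CPM on ZW27941, with no overlap. From 38.0 ± 2.01 CPM to 33.6 ± 0.575 CPM (SD, n = 3 each), its log2 fold change was −0.18 (standard error 0.034, edgeR adjusted p = 4.65e-04) and its percent change −11.5%. Within DMSO, replicate 3 was the lowest and lay closest to the ZW27941 libraries. WDR4 lies at chr21:42843094-42879568 (minus strand), and no annotated gene overlaps its span.

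METTL1, the catalytic subunit, was at 19.6, 19.4 and 18.8 CPM in DMSO and 18.8, 17.997 and 19.9 CPM on ZW27941, where replicate 3 was above every DMSO library and replicate 2 below all of them. Its log2 fold change was −0.027 (standard error 0.038, 95% interval −0.11 to 0.053, edgeR adjusted p = 0.648). At chr12:57768471-57772793 (minus strand), METTL1 shares 506 exon bases (19.3%) with EEF1AKMT3, listed as METTL21B, on the opposite strand and 107 (4.08%) with CYP27B1 on its own strand. Both of these neighbours rose, with log2 fold changes of 0.19 (edgeR adjusted p = 6.47e-04) and 0.53 (edgeR adjusted p = 4.14e-06), and their part in the METTL1 counts was not tested.

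TRMT61A and TRMT6 form the enzyme that makes 1-methyladenosine in the T loop of tRNA, and the catalytic subunit was the one that fell. TRMT61A was at 23.2, 22.9 and 22.2 CPM in DMSO and 20.02, 20.4 and 21.5 CPM on ZW27941. All ZW27941 libraries were lower than all DMSO libraries, and ZW27941 replicate 3 lay closest to them. The log2 fold change of TRMT61A (chr14:103529184-103537073, plus strand) was −0.14 (standard error 0.035, edgeR adjusted p = 0.00372), a percent change of −9.33%. TRMT6, the tRNA-binding subunit (chr20:5937235-5950558, minus strand), was at 25.5, 24.1 and 25.7 CPM in DMSO and 27.1, 26.8 and 25.4 CPM on ZW27941. ZW27941 replicates 1 and 2 were above every DMSO library and replicate 3 was not. The log2 fold change of TRMT6 was 0.074 (standard error 0.035, 95% interval 0.0018 to 0.15) and did not pass after adjustment (edgeR adjusted p = 0.116). Single libraries moved this value both ways. Without ZW27941 replicate 3 it was 0.099 and passed (edgeR adjusted p = 0.0365), and without DMSO replicate 2 it was 0.046 (edgeR adjusted p = 0.419).

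NSUN2, which makes 5-methylcytosine in tRNA and other RNAs, had the highest CPM of the members. It was at 229, 221 and 219 CPM in DMSO and 237, 239 and 242 CPM on ZW27941, so that all ZW27941 libraries were higher. Its mean rose from 223 ± 5.01 CPM to 239 ± 2.32 CPM (SD, n = 3 each), or by 7.33%, with a log2 fold change of 0.10 (standard error 0.025, edgeR adjusted p = 0.00296). NSUN2 (chr5:6599239-6633291, minus strand) overlaps no other annotated gene.

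PCIF1 adds the methyl group that turns the 2′-O-methyladenosine beside the mRNA cap into m6Am. Its values were 43.3, 41.2 and 42.0 CPM in DMSO and 39.4, 39.7 and 39.96 CPM on ZW27941. The gap was narrow, but no ZW27941 library reached the lowest DMSO library. PCIF1 (chr20:45934628-45948023, plus strand) fell from 42.2 ± 1.07 CPM in DMSO (SD, n = 3) to 39.7 ± 0.263 CPM on ZW27941 (SD, n = 3), with a log2 fold change of −0.086 (standard error 0.029, 95% interval −0.15 to −0.027, edgeR adjusted p = 0.0262) and a percent change of −5.82%. This was the call nearest to the threshold. It was lost without DMSO replicate 1 (log2 fold change −0.066, edgeR adjusted p = 0.130), without DMSO replicate 3 (0.0604), without ZW27941 replicate 1 (0.0849) and without ZW27941 replicate 2 (0.0619). An antisense gene, AL162458.1, shares 177 exon bases (5.50%) with PCIF1 and was not among the genes tested.

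METTL4, a methyltransferase of internal m6Am in U2 small nuclear RNA, had the largest change of the 10 members and the lowest p. It was at 12.1, 12.7 and 11.3 CPM in the DMSO libraries and 15.0, 15.2 and 14.9 CPM in the ZW27941 libraries. The ZW27941 libraries were all above the DMSO libraries, and their SD of 0.170 CPM was smaller than the 0.658 CPM of DMSO. The log2 fold change was 0.32 (standard error 0.043, edgeR adjusted p = 7.59e-06), a rise of 24.9% with a 95% interval of 17.4% to 32.9%. It was larger in size than the change of 82.4% of all genes tested, a share taken over genes of every level that passed the filter. METTL4 lies at chr18:2537525-2571509 (minus strand), and the 3 non-coding genes within its span share 0 of its exon bases.

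Levels were also compared per kilobase of exon (GENCODE v29). The length was that of all annotated exons of a gene joined, which may not match the transcripts made. For TRMT112 it took in the whole span of 1625 bases, so its level per kb may be too low. Exon bases shared with other genes, 17.5% in TRMT112, 19.97% in METTL5 and 23.4% in METTL1, were kept in. The order below holds for these lengths. NSUN2 and TRMT112 were highest in DMSO, at 40.5 ± 0.911 and 39.5 ± 0.723 CPM per kb (SD, n = 3 each). Their ranges overlapped. WDR4 and PCIF1 followed at 13.9 and 13.1 CPM per kb, again with overlapping ranges, and METTL5 at 11.3. METTL1 and TRMT61A, at 7.35 and 7.05 CPM per kb, overlapped, while TRMT6 at 6.65, ZCCHC4 at 3.88 and METTL4 at 2.10 were each apart from their neighbour in the order. On ZW27941, PCIF1 and WDR4 overlapped at 12.3 CPM per kb, and METTL1 at 7.21 overlapped with TRMT6 at 6.998, which now stood above TRMT61A at 6.39. METTL4 was still the lowest, at 2.63 CPM per kb.

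The ratio of the counts of an enzyme to those of its partner does not depend on the scaling of a library. METTL5 to TRMT112 had log2 ratios of −1.003, −0.98 and −0.97 in DMSO and −1.23, −1.16 and −1.14 on ZW27941, a difference of −0.19 and a percent change of −12.6% in the ratio. METTL1 to WDR4 had log2 ratios of −1.02, −0.99 and −0.93 in DMSO and −0.86, −0.88 and −0.74 on ZW27941, a difference of 0.15 and a percent change of 10.8%. TRMT61A to TRMT6 had log2 ratios of −0.14, −0.072 and −0.22 in DMSO and −0.43, −0.39 and −0.24 on ZW27941, a difference of −0.22 and a percent change of −13.8%. In each of the 3 pairs the groups did not overlap, but for TRMT61A to TRMT6 ZW27941 replicate 3 lay beside DMSO replicate 3. The share of other gene pairs without overlap was not computed. Of single genes with a mean of at least 10 CPM, 55.9% had no overlap, so this is not a result about the pairs. The exact two-sided permutation test gave p = 0.1 for each pair (adjusted p = 0.1 over the 3 pairs), the smallest that 3 against 3 libraries allow, so this design could not reach 0.05. In these libraries the catalytic subunit was lower against its partner in 2 pairs and higher against it in the METTL1 pair, where WDR4 was the one that fell.

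**Figure D3:**
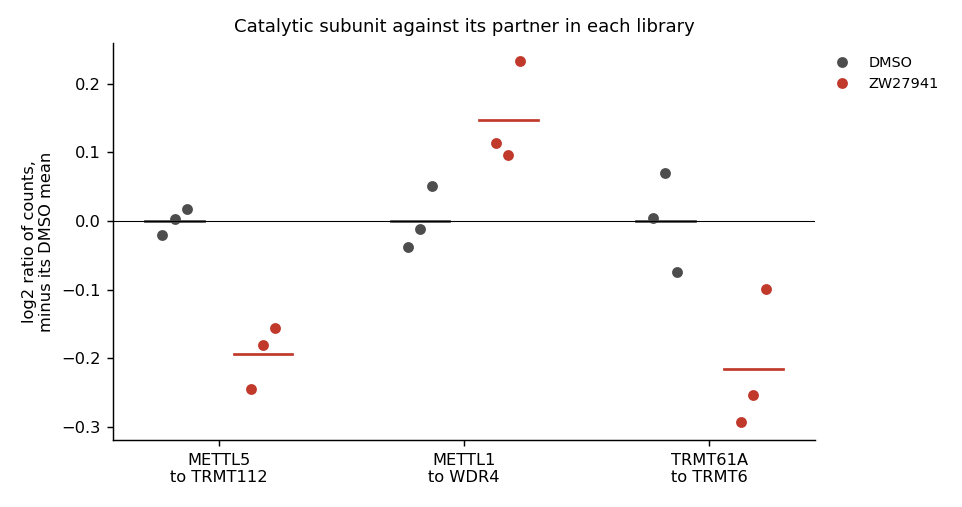
Log2 ratio of the counts of enzyme to partner in each library, minus its mean in DMSO, for METTL5 to TRMT112, METTL1 to WDR4 and TRMT61A to TRMT6, with points for libraries and bars for the means of the 3 DMSO and the 3 ZW27941 libraries. The mean ratio was lower on ZW27941 by 0.19 and 0.22 for the first and last pair and higher by 0.15 for METTL1 to WDR4, with no overlap in any pair. How often other gene pairs lack overlap was not computed.

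Of the members, 5 have a protein-coding gene that starts within 1000 bases on the other strand and was tested, and these pairs were compared after the values had been seen. METTL4 starts 2 bases from NDC80, a kinetochore protein gene, which had a log2 fold change of 0.018 (edgeR adjusted p = 0.678) beside the 0.32 of METTL4. The log2 ratio of METTL4 to NDC80 was −1.85, −1.74 and −1.94 in DMSO and −1.53, −1.52 and −1.57 on ZW27941, which restates the change of METTL4 itself. WDR4 starts 76 bases from NDUFV3, a subunit gene of respiratory complex I, and the 2 moved in opposite directions, with NDUFV3 at 0.094 (edgeR adjusted p = 0.0162) and a difference in log2 ratio of −0.27. NSUN2 and SRD5A1, a steroid reductase gene whose start is 52 bases away, also moved in opposite directions, with SRD5A1 at −0.17 (edgeR adjusted p = 5.36e-04) and a difference in log2 ratio of 0.28. TRMT112 starts 4 bases from PRDX5, a peroxiredoxin gene that fell by 0.19 on the log2 scale (edgeR adjusted p = 2.01e-04), and the log2 ratio of TRMT112 to PRDX5 differed by 0.22. The groups of libraries did not overlap in these 4 ratios. No share over other gene pairs was computed, and 55.9% of single genes with a mean of at least 10 CPM had no overlap. The count is therefore not a result about genes that start side by side. In the fifth pair, TRMT6 and MCM8, a helicase gene whose start is 94 bases away, the ratio differed by −0.049 with overlap, and MCM8 rose by 0.12 (edgeR adjusted p = 0.0013). This ratio difference was −0.0093 without DMSO replicate 3, −0.026 without ZW27941 replicate 3 and −0.084 without DMSO replicate 2. Exact two-sided permutation tests gave p = 0.1 for the 4 pairs and p = 0.4 for TRMT6 to MCM8, or 0.125 and 0.4 adjusted over the 5 pairs.

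**Figure D4:**
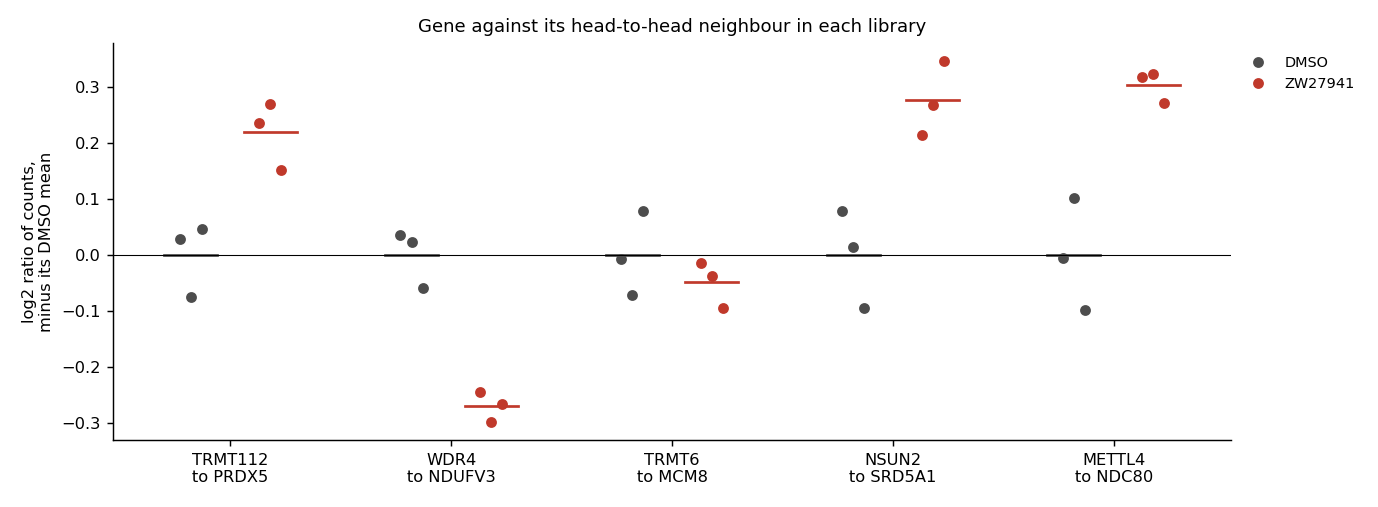
Log2 ratio of the counts of a member to those of the gene that starts beside it on the other strand, minus its mean in DMSO, in each of the 3 DMSO and 3 ZW27941 libraries, for 5 pairs, with bars for the group means. The ratio is higher on ZW27941 for TRMT112 to PRDX5, NSUN2 to SRD5A1 and METTL4 to NDC80, lower for WDR4 to NDUFV3, and overlaps for TRMT6 to MCM8.

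Other methyltransferases of the same RNAs also moved in both directions. Of 31 other tRNA methyltransferases and their partners, 10 rose and 5 fell (48.4% called), with a median log2 fold change of 0.034. WDR6, a partner of the 2′-O-methyltransferase FTSJ1, was at 165, 173 and 169 CPM in DMSO and 187, 190 and 197 CPM on ZW27941, with every ZW27941 library higher, a log2 fold change of 0.18 and an edgeR adjusted p of 1.69e-05. THUMPD3, which works with TRMT112 on tRNA guanosine, rose by 0.15 on the log2 scale (edgeR adjusted p = 3.51e-04). Of 17 other rRNA methyltransferases and their partners, 5 rose and 4 fell (52.9% called), and their median was 0.0029. The balance of this list turned with the scaling, to 3 higher and 5 lower with upper quartile normalization and 5 higher and 1 lower with library size only. The 2 with the lowest p went opposite ways. RRP8, which makes 1-methyladenosine in 28S rRNA, rose from 29.9, 29.2 and 28.1 CPM in DMSO to 35.4, 33.6 and 33.1 CPM on ZW27941, a log2 fold change of 0.23 (edgeR adjusted p = 1.67e-05). DIMT1, the dimethyltransferase of 18S rRNA, fell from 25.9, 24.3 and 24.1 CPM to 21.6, 20.6 and 21.0 CPM, a log2 fold change of −0.23 (edgeR adjusted p = 2.85e-05).

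Of 9 other methyltransferases of the cap and of small RNAs and their partners, 3 rose and 1 fell (44.4% called, median 0.026). With upper quartile normalization, 1 was higher and 2 were lower. HENMT1, which methylates the ends of small RNAs, rose by 0.17 on the log2 scale (edgeR adjusted p = 1.93e-04), and RNMT, the cap guanosine methyltransferase, had a log2 fold change of −0.096 (edgeR adjusted p = 0.00702). The partners of TRMT112 other than METTL5 were 6 genes, some of which are in the tRNA and rRNA lists too, and 2 rose and 3 fell, or 2 and 1 with library size only. Of these, N6AMT1, which methylates the release factor eRF1, had the largest fall, from 11.7, 11.4 and 10.5 CPM in DMSO to 9.22, 9.04 and 8.93 CPM on ZW27941 (log2 fold change −0.30, edgeR adjusted p = 9.91e-05). Of the 2 tRNA demethylases listed, ALKBH3 had a log2 fold change of 0.093 (edgeR adjusted p = 0.0469) and ALKBH1 did not pass. The shares called in these lists are to be read against the 30.1% of all genes tested and the 45.9% of those with a mean of at least 10 CPM.

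**Figure D5:**
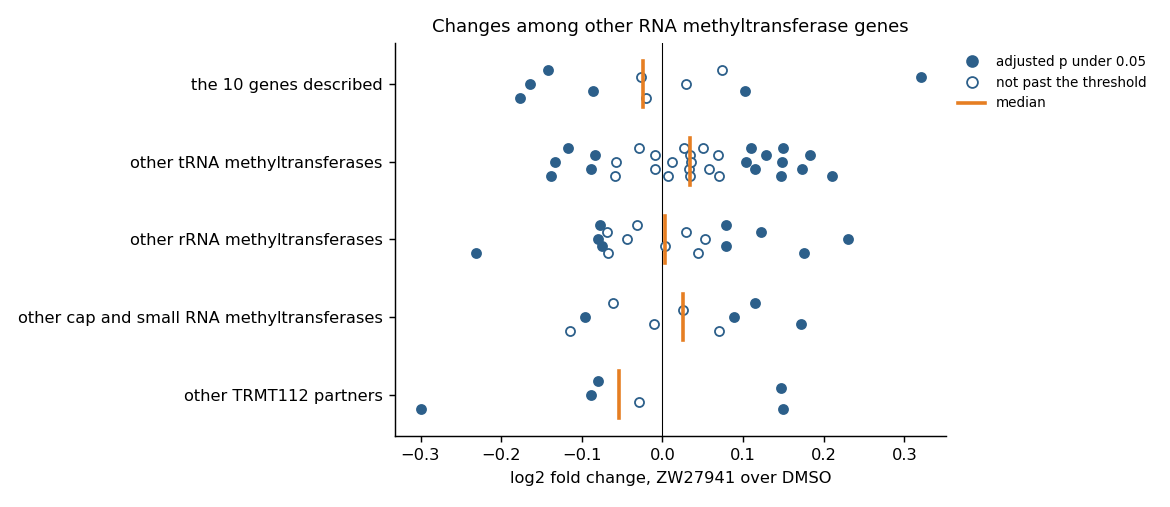
Log2 fold changes, ZW27941 against DMSO, of the 10 members and of the genes in 4 lists of other RNA methyltransferases and partners, with filled points for genes that passed edgeR's test and a line at each median. Each list spreads to both sides of 0, with medians from −0.054 for the partners of TRMT112 to 0.034 for the other tRNA methyltransferases.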

How the data were processed

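RNA of MOLM13 cells was sequenced 24 h after addition of vehicle (DMSO) or of ZW27941 at 1 μM, with 3 libraries each. The files the authors deposited hold unnormalized read counts by gene symbol, 1 library to a file. The submitters' processing notes name HISAT2, SAMtools 1.19.2, HTSeq 2.0.3 and the hg38 build. The annotation release and the strand setting are not given in the sources used here. The 5 HTSeq tallies of reads assigned to no gene, 37.4% to 39.8% of a library, were left out.

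Counts were tested in R 4.3.3 with edgeR 4.0.16 (TMM, filterByExpr, quasi-likelihood test, group as the single term), and p-values were Benjamini-Hochberg adjusted over 20399 genes. Standard errors are the log2 fold change divided by the square root of the F statistic. Enzyme to partner ratios were compared by exact two-sided permutation tests. Gene positions and exon lengths were from GENCODE v29 (GRCh38) and promoters from RefSeq. The steps were tested on simulated data.

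The members and lists were chosen with earlier results of these data known. Named besides the 10 members were METTL3, the 2 genes past the threshold with the lowest p in each list, genes that overlap a member or start within 1000 bases of it on the other strand, pseudogenes of members, and the 5 genes most like the member with the lowest p. The lists were other tRNA, rRNA, and cap and small RNA methyltransferases, each with partners, other TRMT112 partners, tRNA demethylases, and markers of 4 cell groups. Motifs and the ratios to neighbouring genes were chosen after seeing the data. Alternatives were 3 other normalizations, 3 other tests including DESeq2 1.42.0, 2 other filters, a replicate block and each library left out. The biological coefficient of variation between libraries was 3.11%. Members with few counts, such as METTL4, also carry counting error of a similar order.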

Additional observations from a re-analysis of the deposited data

How the results depend on the processing

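Of 150 values of the members under 15 alternatives each, 141 kept their direction and their side of the threshold, 6 lost the call, 1 gained it and 2 changed sign. The 2 that changed sign were ZCCHC4 (0.026 without DMSO replicate 1) and METTL1 (0.0051 without ZW27941 replicate 2), neither of which was called. Over the fits that each left out 1 library, ZCCHC4 ran from −0.052 to 0.026 and METTL1 from −0.068 to 0.0051. The 6 that lost the call were all PCIF1, in 4 fits without a library and with library size only or no filter (edgeR adjusted p = 0.0531 and 0.0546), and the gain was TRMT6 without ZW27941 replicate 3. METTL4 kept its call in every alternative (0.28 to 0.36), as did METTL5 (−0.20 to −0.12), WDR4 (−0.22 to −0.15), TRMT61A (−0.17 to −0.12) and NSUN2 (0.079 to 0.12). With each library left out in turn, 4836 to 6134 genes and 5 to 7 members were called. In the same fits the genes called were 4 to 8 of the other rRNA methyltransferases (9 with all libraries, 4 without DMSO replicate 3, 5 without DMSO or ZW27941 replicate 2), 2 to 4 of those of the cap and small RNAs (4 with all, 2 without DMSO replicate 1 or ZW27941 replicate 1 or 2), and 3 to 5 of the TRMT112 partners (5 with all, 3 without DMSO replicate 1 or 2 or ZW27941 replicate 1 or 2). DESeq2 called 2 of the cap and small RNA list. Library size only and no filter each called 3 of the TRMT112 partners. Library size only and the replicate block called 6 of the other rRNA methyltransferases. Replicate numbers did not pair the libraries (correlations of deviations −0.012, 0.012 and 0.017). With the replicate number as a block, 6010 genes and the same 6 members were called, and 3 of the TRMT112 partners. For the 3 enzyme to partner ratios, pairing by number gave an exact p of 0.25, the smallest that 3 pairs allow. The cause of these differences was not tested.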

Other observations

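The genes tested whose level over the 6 libraries was most like that of METTL4 were VPS45 (a vesicle sorting protein), CHPF2 (a chondroitin polymerase subunit), DCAF1 (a ubiquitin ligase receptor), SDF2 and NEK9 (a mitotic kinase), with Pearson r of log2 CPM from 0.998 to 0.995. These were the highest among the 12230 genes whose mean log2 CPM reached 1, of which 529 had r over 0.95, and all share the same 2 groups of libraries. VPS45 was at 37.3, 37.7 and 36.3 CPM in DMSO and at 40.8, 40.9 and 40.6 CPM on ZW27941, a log2 fold change of 0.14 (edgeR adjusted p = 8.08e-04), so that its change was smaller than the 0.32 of METTL4. In both genes DMSO replicate 3 was the lowest library, which the choice of VPS45 by its correlation with METTL4 favours.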
